A study of Mus musculus with 17 samples.

Results

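The 10 genes described here are Dusp4, Dusp5, Dusp6, Spry2, Spry4, Spred1, Spred2, Etv4, Etv5 and Phlda1, which are commonly read as feedback genes of the ERK pathway. They were taken by symbol from deposited tables of 28670 mouse genes, and all 10 passed the filter on low values, which kept genes that reached 1 FPKM in 2 or more samples. FPKM counts the sequenced fragments of a gene, scaled by transcript length and library depth, and so allows levels to be compared between genes of different length. The rule that picks them uses no measured value.

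The study sequenced RNA of 17 mouse cell cultures, which fall into 7 groups, and asked whether fibroblasts can be reprogrammed to induced pluripotent stem cells (iPSC) without the pluripotency gene Nanog. The labels give 2 strains. Under 129/B6 (v6.5) fall 2 samples of a WT partially reprogrammed iPSC clone (WT piPSC, clone B1), 2 each of Nanog-/- iPSC clones G2 and G5, and 2 of Nanog-/- embryonic stem cells (ESC), all at passage 6. The same strain holds 1 WT iPSC sample at passage 6 and 2 WT ESC samples at passage 10 to 15. Under c57/b6 fall 2 samples of WT embryonic fibroblasts (WT MEF) at passage 2, 2 of WT iPSC and 2 of WT ESC, the last 4 at passage 10 to 15. All 129/B6 samples carry codes that begin with AC and all c57/b6 samples codes that begin with JI, so strain and code cannot be told apart. WT ESC and WT iPSC were therefore read separately in each strain, which gives 9 sets of samples.

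One protocol text is attached to all samples. It puts the parental Nanog-/- ESC and the picked iPSC colonies on feeder cells in 2i with LIF and the fibroblasts in 10% serum, and as reprogramming factors it names Oct4, Sox2, Klf4 and optionally c-Myc, delivered by retrovirus. The Nanog-/- fibroblasts came from chimeric embryos and were sorted by GFP. The text does not give the medium of each WT culture, nor the factor set of each clone. No label says that replicates came from separate cultures, so the p-values measure only the spread between these samples, which may be technical.

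Growth factors such as FGF4 act through receptor tyrosine kinases, the RAS protein and the kinases RAF and MEK to switch on the kinase ERK. In mouse pluripotent cells ERK activity promotes exit from the naive state, and 2i medium holds an inhibitor of MEK for this reason. Active ERK induces a set of short-lived transcripts whose products damp the same pathway, and their levels are therefore widely used as a readout of ERK output, although other signals also reach them. Dusp4, Dusp5 and Dusp6 encode phosphatases that remove the activating phosphates from MAP kinases, DUSP6 in the cytoplasm with a preference for ERK, and DUSP4 and DUSP5 in the nucleus. Spry2 and Spry4 encode Sprouty proteins, and Spred1 and Spred2 their relatives, which hold back signalling between the receptor and RAF. Etv4 and Etv5 encode ETS transcription factors of the PEA3 family that act downstream of FGF. Phlda1 encodes a pleckstrin-homology domain protein induced by growth factors.

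Total fragments assigned to genes ran from 7.80 M to 43.5 M per sample. Of 8 markers of pluripotent cells, all 8 had an FPKM of at least 1 in every sample of the ESC and iPSC sets, 5 did in WT piPSC and 0 in WT MEF, where 6 lay under 0.1. Nanog itself was listed at 45.8 to 49.5 FPKM in Nanog-null ESC, 27.2 to 27.8 in clone G2 and 40.0 to 43.0 in clone G5, against 568 to 574 in WT ESC 129/B6. The sources used here do not say which part of the gene is missing. The c57/b6 ESC and iPSC libraries differed from the rest in makeup, with 21.2% to 28.6% of fragments in genes of ribosomal proteins, against 8.49% to 10.4% in WT ESC and WT iPSC 129/B6.

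Promoter sequences from RefSeq (build GRCm38.p6) were matched by symbol for 6 of the 10 members, which gave 7 promoters, Etv5 having 2. Each runs from 250 bases before a transcription start to 50 bases after it. Those of Dusp6, Etv5 and Spred2 are shown because these members separated WT ESC of the strains most widely among the 6, in opposite directions, and that of Spry2 because it held the ETS core searched for. Capitals mark a match, on either strand, to the ETS core CCGGAA, the AP-1 element TGANTCA or the cyclic AMP response element core TGACGT.
Dusp6, chr10:99262981-99263280, + strand: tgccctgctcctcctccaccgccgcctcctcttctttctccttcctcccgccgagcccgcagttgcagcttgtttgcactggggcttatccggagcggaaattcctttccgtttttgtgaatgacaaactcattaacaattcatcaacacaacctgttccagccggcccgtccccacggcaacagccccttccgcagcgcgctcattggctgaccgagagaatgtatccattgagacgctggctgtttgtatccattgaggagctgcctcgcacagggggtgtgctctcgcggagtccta
Etv5, chr16:22439521-22439820, - strand: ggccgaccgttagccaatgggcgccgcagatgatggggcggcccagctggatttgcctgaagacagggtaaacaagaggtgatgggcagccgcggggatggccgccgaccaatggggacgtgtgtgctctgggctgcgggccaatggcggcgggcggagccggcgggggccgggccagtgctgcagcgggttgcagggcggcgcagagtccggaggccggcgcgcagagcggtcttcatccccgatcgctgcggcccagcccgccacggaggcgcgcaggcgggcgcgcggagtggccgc
Spred2, chr11:19924192-19924491, + strand: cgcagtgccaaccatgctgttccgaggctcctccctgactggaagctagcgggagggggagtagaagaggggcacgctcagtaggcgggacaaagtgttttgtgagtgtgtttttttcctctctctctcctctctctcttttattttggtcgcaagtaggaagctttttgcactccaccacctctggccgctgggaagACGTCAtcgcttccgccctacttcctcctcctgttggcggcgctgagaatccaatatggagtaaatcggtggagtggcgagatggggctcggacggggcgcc
Spry2, chr14:105896770-105897069, - strand: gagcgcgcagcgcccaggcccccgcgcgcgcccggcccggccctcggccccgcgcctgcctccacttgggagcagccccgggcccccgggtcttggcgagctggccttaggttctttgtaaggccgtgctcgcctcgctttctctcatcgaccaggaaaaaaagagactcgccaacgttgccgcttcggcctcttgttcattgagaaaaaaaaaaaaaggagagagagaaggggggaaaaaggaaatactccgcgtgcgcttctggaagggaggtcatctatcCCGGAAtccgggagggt
Spry2 held 1 ETS core, and Dusp5 and Spred2 held 1 cyclic AMP core each, which reads ACGTCA on the strand shown. No match to the 3 motifs lay in the windows of Dusp6, Spred1 or either start of Etv5. Of 32851 mouse promoters of this length, 14.9% held the ETS core, 7.81% the AP-1 element and 7.51% the cyclic AMP core. A match is a string of letters and not a mapped binding site. No promoter is given for Dusp4, Spry4, Etv4 and Phlda1.

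**Figure D1:**
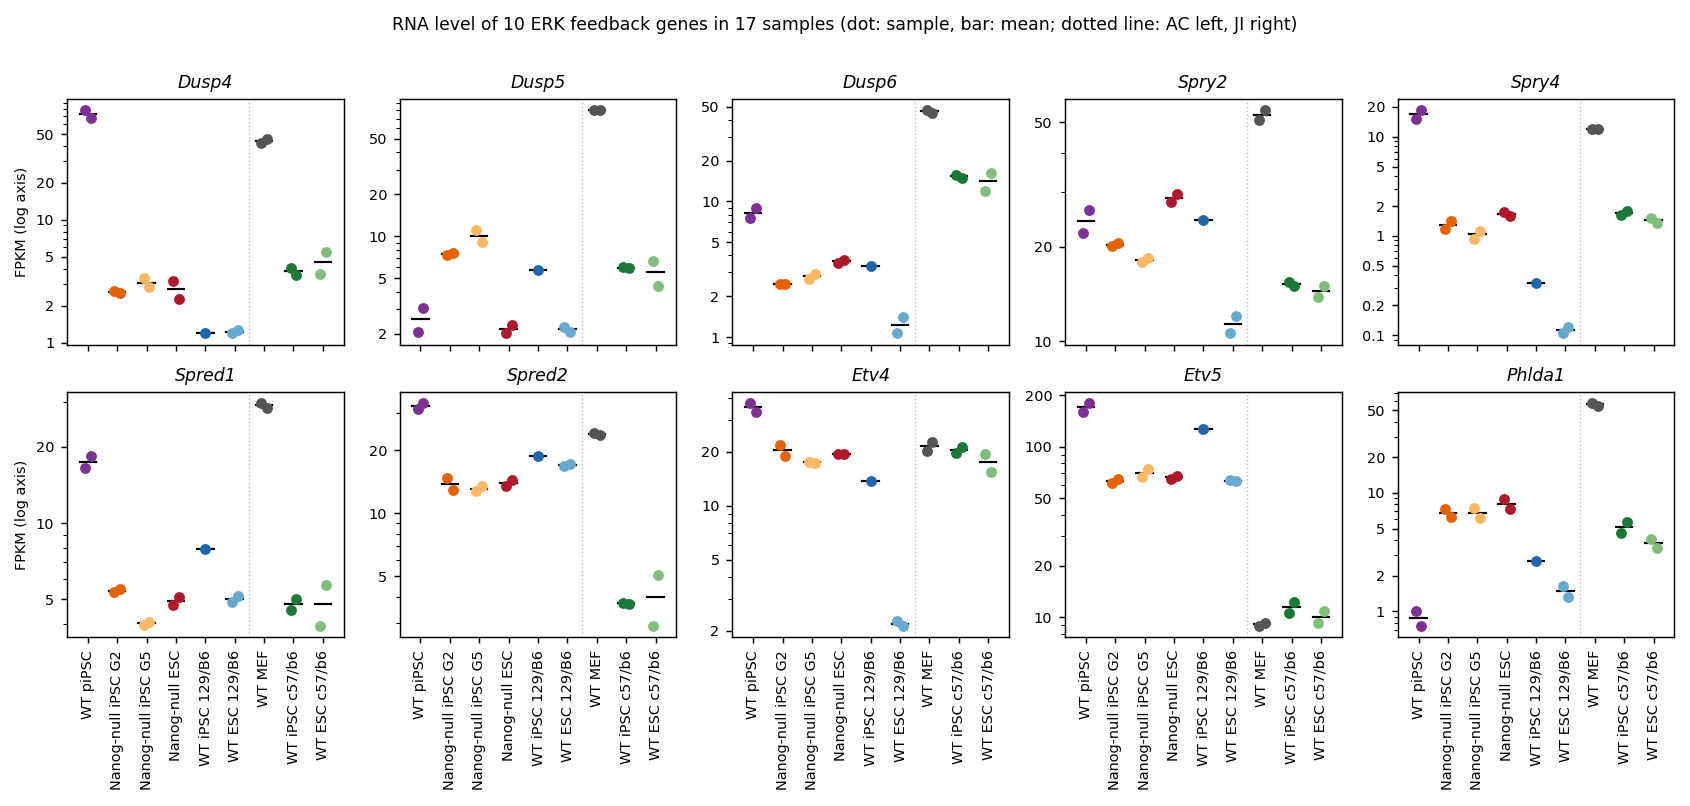
FPKM of each of the 10 genes (vertical log axis) in the 17 samples, grouped into 9 sets; each dot is 1 sample, each bar the mean of a set, and a dotted line parts the AC samples from the JI samples. WT piPSC or WT MEF holds the highest level of every gene, and WT ESC 129/B6 the lowest of Dusp6, Spry2, Spry4 and Etv4.

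Among the phosphatases, Dusp4 (chr8:34807297-34819894 in GRCm38) was high in partially reprogrammed cells and fibroblasts and low in every ESC and iPSC sample. It stood at 78.7 and 67.8 FPKM in WT piPSC, 2.63 and 2.52 in clone G2, 3.34 and 2.83 in clone G5, 3.16 and 2.27 in Nanog-null ESC, 1.19 in WT iPSC 129/B6, and 1.19 and 1.26 in WT ESC 129/B6. In the c57/b6 cultures it had 42.2 and 45.6 FPKM in WT MEF, 4.07 and 3.56 in WT iPSC, and 3.65 and 5.49 in WT ESC. The WT piPSC and WT MEF samples overlapped no other set, and Nanog-null ESC overlapped both Nanog-null iPSC clones. The highest sample was 66.2 times the lowest.

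Dusp5 (chr19:53529109-53542431) had its highest level in fibroblasts and was not raised in partially reprogrammed cells. Its FPKM was 2.07 and 3.08 in WT piPSC, 7.41 and 7.60 in clone G2, 11.2 and 9.07 in clone G5, 2.02 and 2.31 in Nanog-null ESC, 5.76 in WT iPSC 129/B6, and 2.26 and 2.05 in WT ESC 129/B6. The c57/b6 samples gave 80.0 and 80.8 FPKM in WT MEF, 6.01 and 5.95 in WT iPSC, and 6.64 and 4.43 in WT ESC. WT piPSC, Nanog-null ESC and WT ESC 129/B6 overlapped at the low end, and both Nanog-null iPSC clones lay above every other ESC and iPSC set.

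Dusp6 (chr10:99263231-99267489) separated the strains. It had 7.56 and 8.90 FPKM in WT piPSC, 2.45 in both samples of clone G2, 2.69 and 2.91 in clone G5, 3.52 and 3.70 in Nanog-null ESC, 3.32 in WT iPSC 129/B6, and 1.06 and 1.41 in WT ESC 129/B6. WT cultures of c57/b6 had 47.4 and 44.9 FPKM in WT MEF, 15.8 and 14.8 in WT iPSC, and 12.03 and 16.2 in WT ESC. All 6 c57/b6 samples lay above all 11 samples of 129/B6, where WT ESC was lowest.

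Of the Sprouty genes, Spry2 (chr14:105891947-105896819) varied least of the 10 members, with a highest sample 5.17 times the lowest. It had 22.1 and 26.1 FPKM in WT piPSC, 20.1 and 20.5 in clone G2, 17.8 and 18.4 in clone G5, 27.8 and 29.5 in Nanog-null ESC, 24.4 in WT iPSC 129/B6, and 10.6 and 12.04 in WT ESC 129/B6. In the c57/b6 cultures it had 51.0 and 54.7 FPKM in WT MEF, 15.4 and 15.0 in WT iPSC, and 13.8 and 15.0 in WT ESC. WT ESC 129/B6 was the lowest set, followed by WT ESC and WT iPSC of c57/b6, which overlapped.

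Spry4 varied most, with a highest sample 179 times the lowest. It had 15.1 and 18.7 FPKM in WT piPSC, 1.17 and 1.41 in clone G2, 0.937 and 1.13 in clone G5, 1.74 and 1.58 in Nanog-null ESC, 0.335 in WT iPSC 129/B6, and 0.104 and 0.121 in WT ESC 129/B6. The c57/b6 samples gave 11.95 and 11.97 FPKM in WT MEF, 1.63 and 1.78 in WT iPSC, and 1.51 and 1.36 in WT ESC. WT ESC 129/B6 lay below every other set, on 14 and 13 fragments, against 47 in WT iPSC 129/B6. Nanog-null ESC overlapped WT iPSC c57/b6, and clone G2 overlapped WT ESC c57/b6.

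Spred1 (chr2:117121374-117182279) was flat across most stem cell cultures. It had 16.5 and 18.5 FPKM in WT piPSC, 5.33 and 5.47 in clone G2, 3.96 and 4.05 in clone G5, 4.74 and 5.10 in Nanog-null ESC, 7.86 in WT iPSC 129/B6, and 4.88 and 5.13 in WT ESC 129/B6. WT cultures of c57/b6 had 29.9 and 28.6 FPKM in WT MEF, 4.53 and 5.01 in WT iPSC, and 3.91 and 5.70 in WT ESC. WT MEF and WT piPSC stood above the rest, followed by the WT iPSC 129/B6 sample.

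Spred2 (chr11:19924375-20024026) separated the ESC and iPSC of the strains, the other way from Dusp6, but not the fibroblasts. It had 31.4 and 33.6 FPKM in WT piPSC, 14.8 and 12.8 in clone G2, 12.7 and 13.4 in clone G5, 13.5 and 14.4 in Nanog-null ESC, 18.6 in WT iPSC 129/B6, and 16.9 and 17.1 in WT ESC 129/B6. In the c57/b6 cultures it had 24.2 and 23.7 FPKM in WT MEF, 3.76 and 3.71 in WT iPSC, and 2.90 and 5.08 in WT ESC. The 4 c57/b6 ESC and iPSC samples lay below all other samples.

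Of the ETS factors, Etv4 (chr11:101769742-101785371) was low in WT ESC 129/B6 alone. Its FPKM was 37.4 and 33.3 in WT piPSC, 21.9 and 19.0 in clone G2, 17.5 and 17.3 in clone G5, 19.3 and 19.5 in Nanog-null ESC, 13.6 in WT iPSC 129/B6, and 2.26 and 2.13 in WT ESC 129/B6. The c57/b6 samples gave 20.2 and 22.5 FPKM in WT MEF, 19.6 and 21.2 in WT iPSC, and 19.4 and 15.5 in WT ESC. The remaining 15 samples all lay at 13.6 FPKM or above, and WT MEF overlapped WT iPSC c57/b6.

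Etv5 (chr16:22381309-22439719) had the highest level of all members in the AC cultures. It had 160 and 181 FPKM in WT piPSC, 61.6 and 64.2 in clone G2, 66.8 and 73.6 in clone G5, 65.1 and 67.4 in Nanog-null ESC, 128 in WT iPSC 129/B6, and 63.8 and 62.8 in WT ESC 129/B6. WT cultures of c57/b6 had 8.85 and 9.28 FPKM in WT MEF, 10.5 and 12.3 in WT iPSC, and 9.25 and 10.9 in WT ESC. All 6 JI samples lay below all 11 AC samples, and WT MEF overlapped WT ESC c57/b6.

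Phlda1 (chr10:111506286-111508645) was lowest in partially reprogrammed cells and highest in fibroblasts. It had 0.998 and 0.748 FPKM in WT piPSC, 7.35 and 6.26 in clone G2, 7.40 and 6.18 in clone G5, 8.90 and 7.38 in Nanog-null ESC, 2.68 in WT iPSC 129/B6, and 1.65 and 1.32 in WT ESC 129/B6. In the c57/b6 cultures it had 57.9 and 54.7 FPKM in WT MEF, 4.62 and 5.66 in WT iPSC, and 4.11 and 3.46 in WT ESC. The Nanog-null sets lay above the WT stem cell samples. An annotated antisense transcript overlaps exons of Phlda1, and another those of Dusp5. The libraries carry no strand, so fragments from either strand were not separated.

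The ratio between members of a family differed between the sets. That of Etv5 to Etv4 in FPKM was 4.27 and 5.44 in WT piPSC, 2.81 to 4.25 in the 4 samples of the Nanog-null iPSC clones, 3.37 and 3.46 in Nanog-null ESC, 9.36 in WT iPSC 129/B6, and 28.2 and 29.6 in WT ESC 129/B6. In the 6 c57/b6 samples it lay between 0.412 and 0.704. Etv5 thus exceeded Etv4 in all AC samples and in no JI sample. The ratio of Spry2 to Spry4 was 1.46 and 1.40 in WT piPSC, 14.5 to 19.0 in the 6 Nanog-null samples, and 72.9 in WT iPSC 129/B6, against 102 and 99.9 in WT ESC 129/B6. Spred2 exceeded Spred1 in all 11 AC samples, by 1.82 to 3.46 times, and in none of the 6 JI samples, where the ratio was 0.741 to 0.891.

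**Figure D2:**
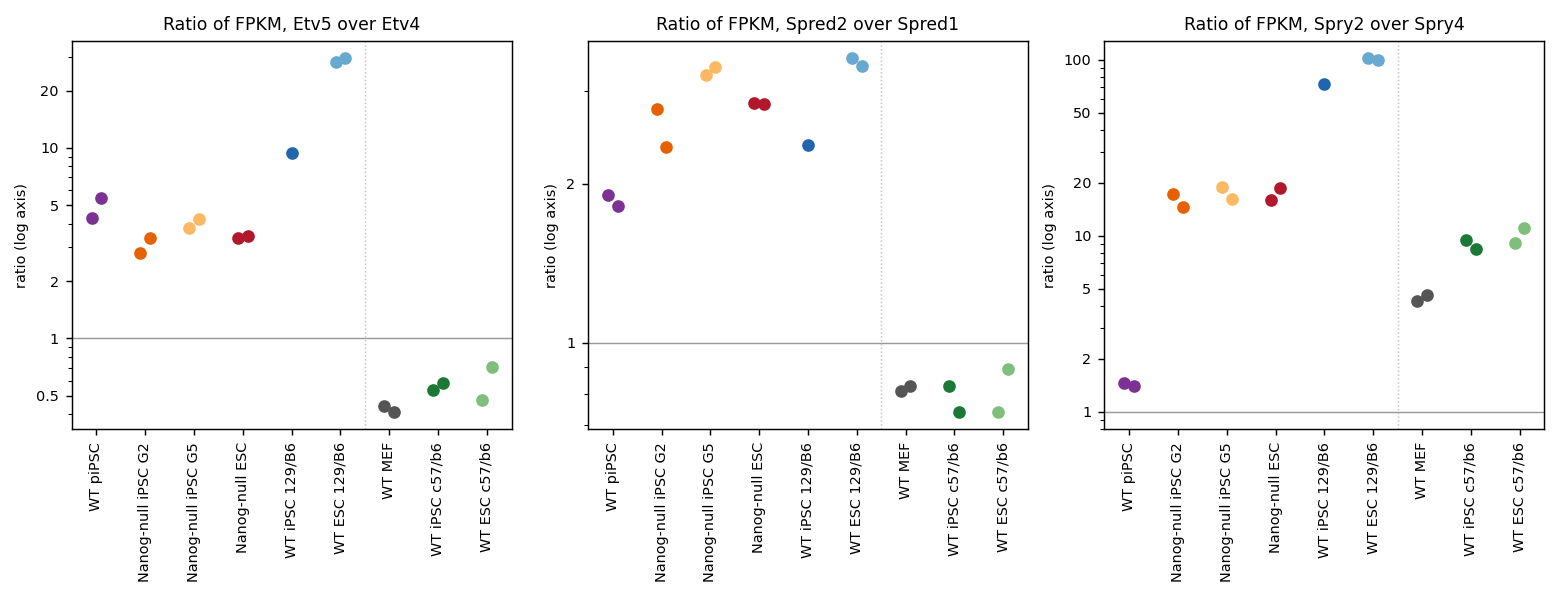
Ratio of FPKM of Etv5 to Etv4, of Spred2 to Spred1 and of Spry2 to Spry4 (vertical log axes) in each of the 17 samples; each dot is 1 sample, the grey line marks equal levels and a dotted line parts AC from JI samples. The first 2 ratios lie above 1 in every AC sample and below 1 in every JI sample, and the third spans 1.40 in WT piPSC to 102 in WT ESC 129/B6.

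The comparison of WT piPSC with WT ESC 129/B6 asks how a culture that stopped short of full reprogramming differs from stem cells of its strain. Counts were tested with edgeR's quasi-likelihood test, and a gene is called here where the p-value adjusted by Benjamini and Hochberg over all 15298 genes tested was under 0.05. In WT piPSC 8 of the 10 members were higher and 1 was lower, while 76% of all genes tested were called, 33.8% higher and 42.2% lower. The median log2 change was 1.59 over the members and -0.14 over all genes. WT piPSC was 1 clone at passage 6 and WT ESC at passage 10 to 15, and this could not be separated from cell state. Nor could any difference of medium, as the medium of each WT culture is not given. Since most genes were called here, the counts alone do not set the members apart.

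Spry4 rose by 7.16 ± 0.19 (log2 change ± SE, edgeR adjusted p = 4.37e-15) in WT piPSC relative to WT ESC 129/B6, a change above that of 99.3% of the genes tested. Dusp4 rose by 5.83 ± 0.18 (adjusted p = 2.37e-14, edgeR), above 98.5% of the genes, and Etv4 by 3.88 ± 0.15 (adjusted p = 3.16e-13, edgeR). Smaller rises were called for Dusp6 (2.67), Spred1 (1.78), Etv5 (1.39), Spry2 (1.02) and Spred2 (0.88), all on the log2 scale. Phlda1 fell by 0.85 ± 0.23 (adjusted p = 0.00313, edgeR). This call was lost without WT ESC 1 (-0.66, adjusted p = 0.0566). Dusp5 was not called, at 0.18 ± 0.19 (adjusted p = 0.404, edgeR).

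Other genes of the families split in WT piPSC, with 6 of 12 tested higher and 5 lower than in WT ESC 129/B6. Etv1, the third PEA3 factor, had 15.3 ± 1.6 FPKM in WT piPSC and 0.813 ± 0.19 in WT ESC 129/B6 (mean ± SD, n = 2 each). Spred3, the third Spred gene, had 20.0 ± 0.21 FPKM in WT piPSC and 0.963 ± 0.15 in WT ESC 129/B6 (n = 2 each), and both genes were called higher. Of 16 other genes linked to ERK, 6 were higher and 5 lower. They are named ERK-induced genes below, although this name does not hold for Bcl2l11 among them. Ccnd1, which encodes cyclin D1, rose by 4.31 and Il1rl1, which encodes the receptor of interleukin 33, fell by 6.23 on the log2 scale. Of 22 genes of the cascade itself 5 were higher and 9 lower, and of 9 FGF ligand and receptor genes 2 were higher and 6 lower.

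Of 12 fibroblast markers 2 were higher and 9 lower in WT piPSC, and their summed level was 57.7 to 101 FPKM in WT piPSC, against 185 to 193 in WT ESC 129/B6, with Pdgfrb and Twist2 under 0.1 FPKM in WT piPSC. Their part in the members' change was not tested. Of 8 pluripotency markers 7 were lower and 1 higher in WT piPSC. The higher marker was Pou5f1 (log2 change 3.13), the gene of Oct4, and Sox2 was among those lower (-2.00). The protocol names both as factors delivered by retrovirus, and vector and endogenous transcripts were not separated.

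**Figure D3:**
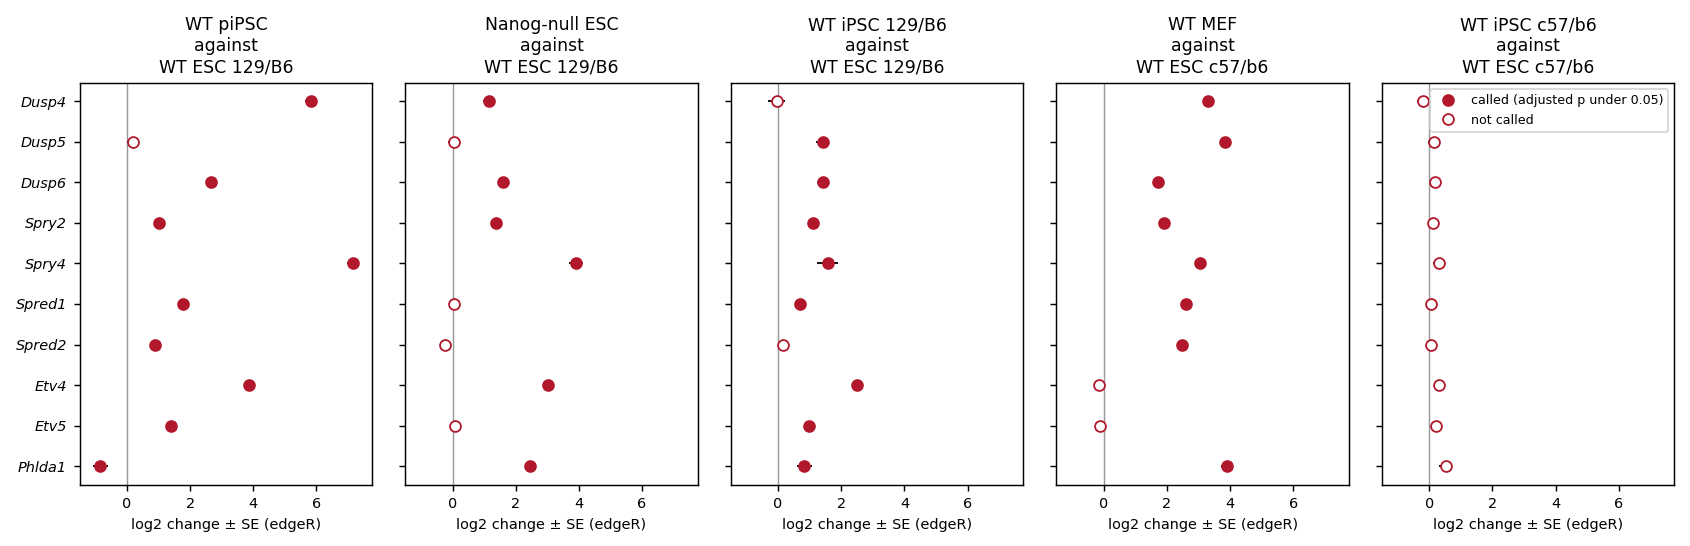
Log2 change (horizontal axis, edgeR, bars show the SE) of each of the 10 genes in 5 comparisons; filled dots are called at an adjusted p under 0.05 and open dots are not. Spry4 reaches 7.16 in WT piPSC, 6 members are called higher in Nanog-null ESC, and 0 members are called between WT iPSC and WT ESC of c57/b6.

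Setting Nanog-null ESC against WT ESC 129/B6 asks what goes with the loss of Nanog in cultures of the same strain. In Nanog-null ESC 6 members were higher and 0 were lower, while 66.7% of all genes were called, 34.9% higher and 31.8% lower. These were 2 phosphatase genes, both Sprouty genes, 1 ETS gene and Phlda1. The members' median log2 change was 1.27, against 0.03 over all genes. The groups also differed in passage, 6 against 10 to 15, and this could not be separated from genotype. The protocol puts the parental Nanog-/- ESC in 2i, which holds a MEK inhibitor, and does not give the medium of WT ESC. Any difference of medium could therefore not be separated from genotype either.

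Spry4 rose by 3.91 ± 0.22 in Nanog-null ESC (log2 ± SE, adjusted p = 1.56e-10, edgeR), above 98.1% of the genes tested, and Etv4 by 3.04 ± 0.15 (adjusted p = 3.28e-11, edgeR). Phlda1 rose by 2.47 ± 0.18 (adjusted p = 3.2e-09, edgeR), unlike its fall in WT piPSC. Dusp6 rose by 1.60 ± 0.16, Spry2 by 1.38 ± 0.10 and Dusp4 by 1.15 ± 0.19, with adjusted p between 3.3e-09 and 5.91e-05 in edgeR. Dusp5, Spred1, Spred2 and Etv5 were not called, with log2 changes of 0.06 ± 0.19, 0.04 ± 0.13, -0.24 ± 0.12 and 0.09 ± 0.11. The value for Spred2 crossed the threshold in DESeq2 (-0.26, adjusted p = 0.0227), with upper-quartile scaling (-0.29, adjusted p = 0.0442) and among AC samples alone (-0.27, adjusted p = 0.00292). WT ESC 129/B6 is shared by this comparison, that of WT piPSC and that of WT iPSC 129/B6, so they are not independent.

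Of 12 other family genes tested, 9 were higher and 3 lower in Nanog-null ESC than in WT ESC 129/B6, with a median log2 change of 1.16. Phlda2, an imprinted relative of Phlda1, rose by 4.16 ± 0.16 and Etv1 by 3.74 ± 0.14 (adjusted p = 2.07e-12 and 1.94e-12, edgeR). Of 16 other ERK-induced genes 11 were higher and 2 lower, with a median of 1.49. Vgf, a neuropeptide precursor gene, rose by 4.02 and Fosl1, an AP-1 subunit gene, by 3.82, with 0.403 ± 0.05 and 0.529 ± 0.01 FPKM in Nanog-null ESC and 0.0207 ± 0.03 and 0.0349 ± 0.01 in WT ESC 129/B6 (n = 2 each). The cascade moved less, with 7 of 22 genes higher, 5 lower and a median of 0.03.

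Among the FGF genes 5 of 9 were higher and 2 lower in Nanog-null ESC. Fgf4, the ligand gene most abundant in ESC, fell to 5.60 ± 0.48 FPKM in Nanog-null ESC, against 81.1 ± 2.6 in WT ESC 129/B6 (mean ± SD, n = 2 each), a log2 change of -3.83 ± 0.13 (adjusted p = 2.28e-12, edgeR). Fgfr2, a receptor gene, stood at 13.4 ± 1.6 FPKM in Nanog-null ESC and at 1.08 ± 0.01 in WT ESC 129/B6 (n = 2 each), a log2 change of 3.63 ± 0.16 (adjusted p = 1.34e-11, edgeR). The other FGF genes called were Fgf2 (1.86), Fgfr3 (2.20), Fgfr4 (1.55) and Fgfr1 (0.29), all higher, and Fgf15 (-2.67), lower, and the part of these genes in the members' change was not tested.

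Markers of other cell types moved with the same contrast. All 12 fibroblast markers were higher in Nanog-null ESC, with a summed level of 813 to 822 FPKM, against 185 to 193 in WT ESC 129/B6, and no marker under 0.1 FPKM in either. The feeder cells named in the protocol are fibroblasts. All 6 primitive endoderm markers were higher, with sums of 92.8 to 92.9 FPKM in Nanog-null ESC and 4.22 to 5.17 in WT ESC 129/B6, where Foxa2 lay under 0.1. Of 5 trophoblast markers tested 4 were higher and 1 lower, with sums of 59.8 to 65.5 FPKM in Nanog-null ESC and 7.08 to 7.28 in WT ESC 129/B6, where Cdx2 lay under 0.1. Of 5 macrophage markers 2 were higher and 1 lower, with sums of 2.73 to 3.36 FPKM in Nanog-null ESC and 1.55 to 1.76 in WT ESC 129/B6, and Ptprc and Emr1 under 0.1 in both. Of 8 pluripotency markers all 8 were lower. In bulk RNA a change in the share of a cell type and a change in RNA per cell cannot be told apart, and the part of these cells in the members' change was not tested.

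Between the Nanog-null iPSC clones, taken as the mean of G2 and G5, and Nanog-null ESC, 1 member was higher and 3 were lower, while 26% of all genes were called, 13.1% higher and 12.9% lower. Dusp5 rose by 1.98 ± 0.15 in the iPSC clones (log2 ± SE, adjusted p = 1.32e-07, edgeR), above 99.4% of the genes tested. Dusp5 was higher in both samples of clone G2 and of clone G5 than in either Nanog-null ESC sample. The SE and p-values of this comparison rest on the spread within sets and not on that between clones. Spry2 fell by 0.59 ± 0.08, Spry4 by 0.53 ± 0.12 and Dusp6 by 0.48 ± 0.12 (adjusted p = 4.36e-05, 0.00336 and 0.00764, edgeR). The Dusp6 call was lost without Nanog-null ESC 2 (-0.43). Those of Dusp6 and Spry4 were lost in a fit of 7 groups with a term for the code prefix (edgeR adjusted p = 0.164 and 0.0531). All samples compared here are AC, and the estimates barely moved in that fit (-0.476 and -0.534), while the SE grew to 0.215 and 0.175.

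The remaining 6 members were not called between the Nanog-null iPSC clones and Nanog-null ESC, Etv4 at -0.01 ± 0.10 and Etv5 at 0.00 ± 0.10 among them on the log2 scale. Of 22 cascade genes 0 were higher and 1 was lower, and of 16 other ERK-induced genes 2 were higher and 4 lower. Of 12 other family genes 4 were higher and 1 lower, and of 9 FGF genes 1 was higher and 2 lower. The primitive endoderm markers were lower for 4 of 6, with sums of 75.1 to 85.8 FPKM in clone G2 and 60.0 to 63.2 in clone G5, against 92.8 to 92.9 in Nanog-null ESC.

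Between clones G2 and G5, 1 of 10 members was called, a share below that of all genes. This was Spred1, higher in G2 by 0.49 ± 0.13 (log2 ± SE, adjusted p = 0.0177, edgeR), and 14.2% of all genes were called, 7.91% higher and 6.31% lower. That call was lost when any of the 4 samples was left out (adjusted p = 0.0842 to 0.124) and on log2(FPKM + 1) in limma (0.35, adjusted p = 0.111). The other 9 members had log2 changes from -0.42 for Dusp5 to 0.33 for Etv4, with Phlda1 at 0.02 ± 0.15. Fibroblast markers were higher in G2 for 11 of 12, with sums of 1220 to 1299 FPKM in G2 and 501.5 to 503 in G5. Trophoblast markers were lower in G2 for 2 of 5 tested, with sums of 62.1 to 64.8 FPKM in G2 and 109.7 to 128.7 in G5, and primitive endoderm markers were higher for 2 of 6. Of 12 other family genes 1 was higher and 2 were lower in G2, and of 16 other ERK-induced genes 3 were higher and 0 lower.

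The Nanog-null iPSC clones were next set against WT iPSC of their strain, a set of 1 sample whose spread was borrowed from the replicated sets. The medium of that WT culture is not given, and the SE again leaves out the spread between clones. In the clones 5 members were higher and 4 lower, while 64.5% of all genes were called, 32.9% higher and 31.7% lower. Spry4 rose by 1.80 ± 0.21, Phlda1 by 1.38 ± 0.19 and Dusp4 by 1.28 ± 0.22 (adjusted p = 1.67e-06, 9.14e-06 and 1e-04, edgeR). Dusp5 and Etv4 rose by 0.63 and 0.53. Etv5 fell by 0.90 ± 0.12, Spred1 by 0.74 ± 0.13, Spred2 by 0.44 ± 0.13 and Spry2 by 0.32 ± 0.10 (log2 ± SE). Dusp6 was not called at -0.31 ± 0.16 (adjusted p = 0.0951, edgeR). The fall of Spry2 was absent from the fit with a prefix term (0.0093, adjusted p = 0.971).

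Fibroblast markers were higher in the Nanog-null iPSC clones than in WT iPSC 129/B6 for 11 of 12 (276 FPKM in sum in the WT iPSC sample), and primitive endoderm markers for 6 of 6 (3.97 FPKM in sum). Trophoblast markers were higher for 4 of 5 tested and lower for 1, with sums of 62.1 to 128.7 FPKM in the clones and 6.05 in WT iPSC 129/B6, and pluripotency markers were lower for 6 of 8 and higher for 1. Their part in the members' differences was not tested. Of 16 other ERK-induced genes 9 were higher and 4 lower in the clones.

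The iPSC and ESC of WT cells were compared within each strain, which asks whether reprogrammed and embryo-derived lines differ in the feedback genes. In 129/B6, 8 members were higher in WT iPSC than in WT ESC and 0 were lower, while 36% of all genes were called, 18.8% higher and 17.2% lower. The members' median was 1.05 against 0.01 over all genes. The WT iPSC arm was 1 sample, at an earlier passage than WT ESC. The medium of each culture is not given.

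Etv4 rose by 2.50 ± 0.17 in WT iPSC 129/B6 (log2 ± SE, adjusted p = 1.44e-08, edgeR), above 98.3% of the genes tested. Spry4 rose by 1.57 ± 0.33, Dusp6 by 1.44 ± 0.19, Dusp5 by 1.41 ± 0.21 and Spry2 by 1.11 ± 0.12, with edgeR adjusted p between 1.91e-06 and 0.0015. Etv5 rose by 0.98 ± 0.13, Phlda1 by 0.83 ± 0.23 and Spred1 by 0.69 ± 0.15. Dusp4 and Spred2 were not called, at -0.05 ± 0.26 and 0.15 ± 0.15 (adjusted p = 0.916 and 0.468, edgeR). Spry4 was not called on log2(FPKM + 1), a scale that compresses values this low (0.26, adjusted p = 0.174, limma), and Phlda1 was not without WT ESC 2 (0.69, adjusted p = 0.0678). In a fit of 7 groups with a prefix term, which gives both strains 1 shared iPSC effect, the 129/B6 calls of Dusp5, Dusp6, Spry4 and Spred1 were lost (adjusted p = 0.0523, 0.0562, 0.0653 and 0.133).

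Beside these rises, Etv1 rose by 2.90 ± 0.16 and Dusp14, another phosphatase gene, by 1.29 ± 0.15 among 6 other family genes higher and 2 lower of 12. Of 16 other ERK-induced genes 8 were higher and 1 lower in WT iPSC 129/B6, Vgf (2.79) and Ccnd1 (1.36) with the largest rises. Fgf15 (2.97) and Fgf5 (2.72) were among 3 of 9 FGF genes called higher, and 0 were lower. Both Vgf and Fgf5 lay under 0.1 FPKM in WT ESC 129/B6, so their changes start near the floor. Fibroblast markers were higher for 6 of 12, with sums of 276 FPKM in WT iPSC 129/B6 and 185 to 193 in WT ESC 129/B6. Of 22 cascade genes 0 were higher and 3 lower. Trophoblast markers were higher for 2 of 5 tested and lower for 1, macrophage markers higher for 1 of 5, and pluripotency markers lower for 2 of 8. The part of these cell types in the members' changes was not tested.

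In c57/b6, with 2 samples each, 0 of the 10 members were called between WT iPSC and WT ESC, and 0.229% of all genes were (35 genes), 0.15% higher and 0.0784% lower. In edgeR's fit across all genes 2 members had an unadjusted p under 0.05, Phlda1 with a log2 change of 0.52 ± 0.21 (adjusted p = 0.329) and Etv4 with 0.29 ± 0.13 (adjusted p = 0.383). The other log2 changes ran from -0.20 for Dusp4 to 0.31 for Spry4. DESeq2 called 0 members. The 2 WT ESC samples differed from each other more than any other replicate pair. Without WT ESC 3, Etv4 was called (0.53, adjusted p = 0.0112) as were 3492 genes in all, and without WT ESC 4 the calls were 237 genes and 0 members. The fit with a prefix term gives both strains 1 shared iPSC effect, which is no estimate for c57/b6 alone. It called 4 members, Spry2 (0.57), Etv4 (1.16), Etv5 (0.57) and Phlda1 (0.65). In the main fit none of the 9 other lists held a called gene between WT iPSC and WT ESC c57/b6.

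The difference between the strains in the iPSC change was tested as an interaction. Its 129/B6 arm holds 1 WT iPSC library with no spread of its own, so a difference between the strains and a deviation of that library cannot be told apart. The interaction was called, and larger in 129/B6, for 7 members, while 20.9% of all genes were called, 8.82% larger and 12.1% smaller in 129/B6. Etv4 changed by 2.21 ± 0.22 more in 129/B6 than in c57/b6 (log2 ± SE, adjusted p = 3.96e-06, edgeR). Dusp5 followed with 1.27 ± 0.29, Dusp6 with 1.26 ± 0.23, Spry4 with 1.26 ± 0.38 and Spry2 with 0.98 ± 0.16. Etv5 had 0.76 ± 0.18 and Spred1 0.63 ± 0.21 (adjusted p = 0.00783 and 0.0444, edgeR). Dusp4, Spred2 and Phlda1 were not called, at 0.15 ± 0.33, 0.09 ± 0.22 and 0.32 ± 0.31. The call of Spred1 was lost without any 1 of WT ESC 1, 2 and 4 and c57/b6 WT iPSC 2 and 3 (adjusted p = 0.051 to 0.172), and that of Spry4 without WT ESC 1, WT ESC 2 or WT iPSC 2 (0.109, 0.0554 and 0.051). Both were also lost in limma on log2(FPKM + 1), Spry4 at 0.11 (adjusted p = 0.713) and Spred1 at 0.55 (adjusted p = 0.0772), and on log2(FPKM + 0.1), at 0.80 (adjusted p = 0.0662) and 0.63 (adjusted p = 0.0973).

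**Figure D4:**
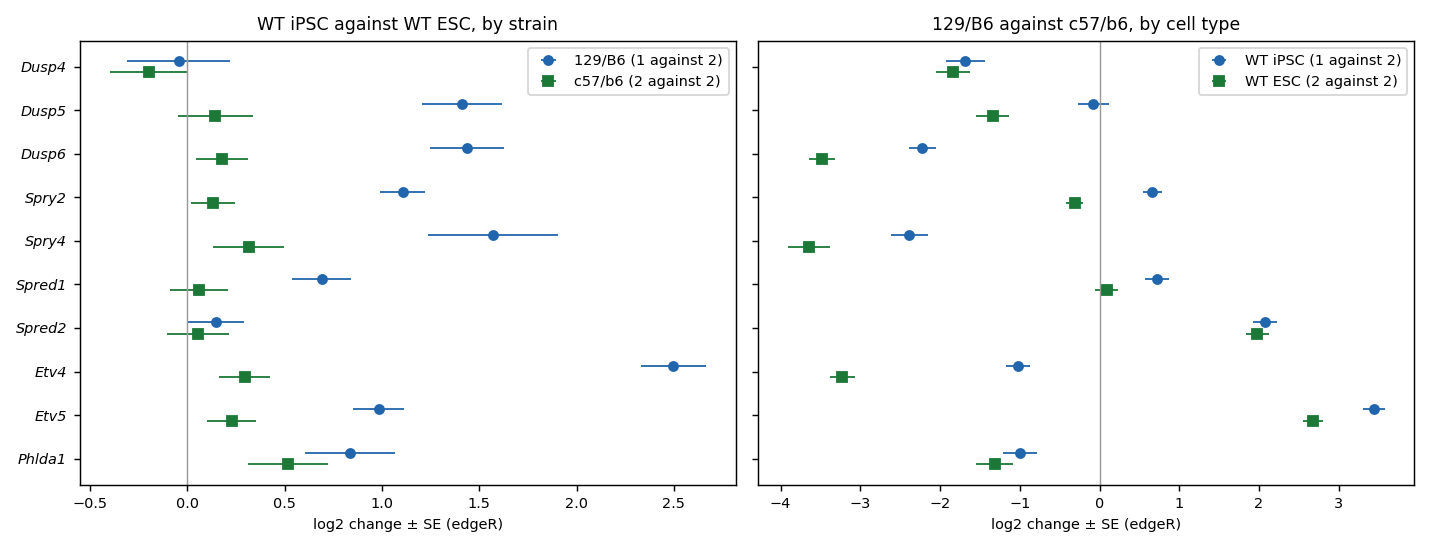
Log2 change (horizontal axes, edgeR, bars show the SE) of the 10 genes, on the left WT iPSC against WT ESC in 129/B6 (circles) and c57/b6 (squares), on the right 129/B6 against c57/b6 in WT iPSC (circles) and WT ESC (squares). On the left Etv4 stands at 2.50 in 129/B6 and 0.29 in c57/b6, and on the right Dusp6, Spry4 and Etv4 lie below 0 and Etv5 and Spred2 above 0 in both cell types.

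Between the strains the members split by gene rather than moving as 1 group. In WT ESC, 129/B6 was lower for 7 members and higher for 2, while 69.8% of all genes were called, 35% higher and 34.8% lower. Spry4 (-3.64 ± 0.27), Dusp6 (-3.48 ± 0.16) and Etv4 (-3.23 ± 0.16) fell most in 129/B6 (log2 ± SE, adjusted p = 5.51e-09, 4.57e-11 and 6.7e-11, edgeR), and each was among the 2.4% of genes with the lowest changes. Dusp4 (-1.84 ± 0.22), Dusp5 (-1.34 ± 0.21) and Phlda1 (-1.32 ± 0.23) fell less. Spry2 fell by 0.31 ± 0.11 (adjusted p = 0.0188, edgeR), a call lost without WT ESC 1 (-0.22, adjusted p = 0.155) or WT ESC 4 (-0.25, adjusted p = 0.0935), with no filter (-0.30, adjusted p = 0.0611), with a mean FPKM of at least 5 (-0.25, adjusted p = 0.0522) and without ribosomal protein genes (-0.26, adjusted p = 0.0513).

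Etv5 rose by 2.68 ± 0.13 and Spred2 by 1.98 ± 0.15 in WT ESC 129/B6 relative to c57/b6 (adjusted p = 4.71e-11 and 5.86e-09, edgeR). Spred1 was not called at 0.09 ± 0.14, but was without WT ESC 4 (0.41, adjusted p = 0.00699). In WT iPSC, where 129/B6 is a single library whose spread was borrowed from other sets, 129/B6 was lower for 5 members and higher for 4, while 73.1% of all genes were called, 34.7% higher and 38.4% lower. Etv5 (3.44 ± 0.14), Spred2 (2.07 ± 0.15), Spred1 (0.72 ± 0.15) and Spry2 (0.66 ± 0.12) were higher in 129/B6. Spry4 (-2.38 ± 0.23), Dusp6 (-2.22 ± 0.17), Dusp4 (-1.68 ± 0.24), Etv4 (-1.02 ± 0.15) and Phlda1 (-1.00 ± 0.21) were lower, and Dusp5 was not called (-0.08 ± 0.20). The prefix term gives ESC and iPSC 1 shared strain difference. In it Spry2 was not called (0.12, edgeR adjusted p = 0.475) and Dusp5 was lower in 129/B6 (-0.73, edgeR adjusted p = 0.00756).

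The other ERK-induced genes were lower in WT ESC 129/B6 than in WT ESC c57/b6 for 11 of 16 and higher for 3, with a median log2 change of -1.68 against 0.00 over all genes. The immediate early genes Fos and Egr1 had the largest changes, Fos with 0.403 ± 0.15 FPKM in 129/B6 and 9.09 ± 0.25 in c57/b6, and Egr1 with 0.168 ± 0.03 in 129/B6 and 2.90 ± 0.37 in c57/b6 (mean ± SD, n = 2 each). The log2 changes were -4.33 ± 0.21 for Fos and -4.12 ± 0.29 for Egr1 (adjusted p = 7.13e-11 and 3.23e-09, edgeR). The cascade genes went the other way for the most part, with 15 of 22 higher and 5 lower in 129/B6. Of 9 FGF genes 1 was higher and 4 were lower, and Fgf4 was not called (-0.08 ± 0.12). Of 12 other family genes 3 were higher and 5 lower. Fibroblast markers were higher for 7 of 12 and lower for 3, macrophage markers lower for 4 of 5 and primitive endoderm markers lower for 3 of 6, and their part in these differences was not tested. Strain, sample code, passage of the iPSC, ribosomal share and any difference of medium cannot be told apart in these comparisons.

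Fibroblasts were compared with WT ESC of their strain and code. WT MEF were at passage 2 and WT ESC at passage 10 to 15. The protocol puts the fibroblasts in serum and does not give the medium of WT ESC. Passage and medium could not be separated from cell type. In WT MEF 8 members were higher and 0 lower, while 82.1% of all genes were called, 40.2% higher and 41.9% lower. Phlda1 rose by 3.89 ± 0.18, Dusp5 by 3.85 ± 0.17, Dusp4 by 3.30 ± 0.17 and Spry4 by 3.06 ± 0.16 (log2 ± SE, edgeR adjusted p between 2.95e-12 and 1.69e-11). Spred1 rose by 2.62 ± 0.14, Spred2 by 2.48 ± 0.15, Spry2 by 1.89 ± 0.11 and Dusp6 by 1.73 ± 0.13. The ETS factors were the exception, with Etv4 at -0.13 ± 0.13 and Etv5 at -0.11 ± 0.13 (adjusted p = 0.36 and 0.443, edgeR).

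The calls of the ETS factors in WT MEF differed between fits. With upper-quartile scaling, which shifted the median of all genes by -0.25, both were called lower (-0.38 and -0.36). In limma on log2(FPKM + 1), Etv4 turned direction and was called higher (0.28, adjusted p = 0.0329). Without WT ESC 4 Etv4 was called lower (-0.31, adjusted p = 0.0318). Of 16 other ERK-induced genes 14 were higher and 1 lower in WT MEF, with a median of 2.31, and Il1rl1 (7.65) and Egr2 (7.35) had the largest log2 changes. Of 12 other family genes 9 were higher and 3 lower. The fibroblast marker sum was 3930 to 3983 FPKM in WT MEF and 112 to 127 in WT ESC c57/b6, and all 5 macrophage markers were also higher in WT MEF, with sums of 459 to 461.5 FPKM in WT MEF and 13.7 to 16.6 in WT ESC c57/b6. The part of macrophages in the members' change was not tested.

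Over the 17 samples Pearson's r of log2(FPKM + 1) was positive for 36 of the 45 pairs of members and negative for 9, of which 8 held Etv5 and the other was Dusp6 with Spred2 (-0.15). It was highest between Dusp4 and Spry4 (0.98) and lowest between Dusp6 and Etv5 (-0.73). Within families it was 0.68 for Spry2 and Spry4, 0.64 for Spred1 and Spred2, 0.40 to 0.67 for the Dusp genes, and -0.05 for Etv4 and Etv5. These describe 17 points in 9 sets that share libraries and strain. Among 11915 genes compared, those most like Dusp4 were Bag2, Ptrf and Il15ra (all 0.98), and those most like Spry4 were Ptrf (0.99), Bag2 and Lsp1 (0.98 each). Most like Dusp5 were Gpr137b (0.97), Vgf (0.96) and Mmp10 (0.95), and most like Dusp6 were 9130008F23Rik, Tm4sf1 (0.96 each) and Sh3kbp1 (0.95). Spry2 was closest to Efnb2 (0.96), Tulp4 (0.95) and Sec23ip (0.94), and Spred1 to Zfp334 and Ngef (0.98 each). Spred2 was closest to Birc6, Pofut1 and Man2a2 (0.99 each). Etv4 was closest to Ada (0.95), Atg2b (0.94) and Tmem98 (0.91), Etv5 to Arhgef18 (0.98), Rpusd2 (0.97) and Celsr1 (0.96), and Phlda1 to Filip1l (0.99), Jun and Zeb2 (0.98 each).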

How the data were processed

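The members and all gene lists were chosen with earlier results of these data known. Libraries were TruSeq v2 from total RNA with a RIN above 7.5, sequenced on HiSeq instruments at separate sites, per the labels' protocols. Per the submitters' processing notes, reads passed through CASAVA, were aligned with TopHat2 2.0.7 over Bowtie2 2.0.5 and were quantified with Cuffdiff 2.1.1, and the builds mm10 and NCBIM37 are named with no role. Each deposited sample table holds, per the file headers, estimated counts of fragments per gene, a scaled count signal, FPKM and a status. The deposited FPKM table of the groups, made by the authors, lay within 0.001% of the sample means for the members and was used only for that check. Gene positions are from GENCODE M21 (GRCm38), not from the files.

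Estimated counts were rounded to whole numbers and tested with edgeR 4.0.16 (R 4.3.3, quasi-likelihood test, TMM scaling) in 1 fit of 9 set means over 17 samples, with 8 residual degrees of freedom. Genes reaching 1 FPKM in 2 or more samples were kept (15298 genes), and Benjamini and Hochberg's adjustment covered all of them, with a threshold of 0.05. Set means use all samples, so the single WT iPSC 129/B6 library borrows its spread from the others. On counts simulated for Nanog-null ESC against WT ESC 129/B6 (15294 genes), the test called 70.1% of 1.5-fold, 97% of 2-fold and 100% of 4-fold changes, and 12 unchanged genes. The changed genes were drawn only from those above a minimum expected count in WT ESC 129/B6. These rates therefore do not cover genes as low there as Spry4. Counting depth limits Spry4 most, at 13 fragments in its lowest library.

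Alternatives were DESeq2 1.42.0, its size factors, upper-quartile scaling, limma 3.58.1 on log2(FPKM + 1) and log2(FPKM + 0.1), omission of the filter, a minimum mean FPKM of 5, fits of 1 code prefix, a prefix term, a replicate block, a fold of at least 2, and each sample left out. A fit without ribosomal protein genes was added after seeing the data. All 10 members are named in every comparison, from each other list at most the 2 called genes with the largest changes (Fgf4 between the strains, and Fgf2, Fgf15, Fgfr1, Fgfr3 and Fgfr4, were named after their values were seen), and for likeness the 3 genes with the highest r, of which 1 for Spred1 is not reported here. The lists held other family genes, cascade genes, other ERK-induced genes, FGF genes, and markers of fibroblasts, pluripotent cells, primitive endoderm, trophoblast and macrophages.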

Additional observations from a re-analysis of the deposited data

Results flagged for a closer look

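For 7 members the change between WT iPSC and WT ESC differed between the strains by a test of the difference itself (edgeR interaction, Benjamini and Hochberg adjusted). Of all genes tested, 20.9% were called in this test, 8.82% larger and 12.1% smaller in 129/B6. In log2 units the 129/B6 change exceeded the c57/b6 change by 2.21 for Etv4, 1.27 for Dusp5, 1.26 for Dusp6, 1.26 for Spry4, 0.98 for Spry2, 0.76 for Etv5 and 0.63 for Spred1. The calls of Spry4 and Spred1 did not hold in every fit, with Spry4 at 0.11 (adjusted p = 0.713) and Spred1 at 0.55 (adjusted p = 0.0772) in limma on log2(FPKM + 1), and adjusted p of 0.051 to 0.172 with some samples left out. The 129/B6 arm rests on 1 WT iPSC library, and strain, sample code and passage cannot be told apart in it. The other groups were too small to screen for an outlying sample, and the group of 4 WT ESC samples pools both strains, so such a screen says nothing there.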

How the results depend on the processing

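Over the 110 member results (10 members in 11 comparisons), DESeq2 kept 109 on the same side of the threshold, DESeq2's size factors 110, upper-quartile scaling 107, limma on log2(FPKM + 1) 104 and on log2(FPKM + 0.1) 105, no filter 108 and no ribosomal protein genes 109. At a minimum mean FPKM of 5, 98 of 99 did. The prefix term kept 84 of 100, and a fold of at least 2 kept 88 of 110. Leaving out 1 sample kept 419 of 440. Among results called in the main fit or the alternative, directions turned in 5 cases. Directions of results called in neither fit were not compared. With a prefix term, which takes WT iPSC of both strains as 1 group, Spry2 stood at 0.0093 between the Nanog-null clones and WT iPSC. It stood at 0.12 in the strain difference shared by ESC and iPSC, against its fall between WT ESC of the strains. In WT MEF, Etv4 turned to 0.28 and 0.30 in the limma fits and Etv5 to 0.38 under the replicate block. WT MEF and WT ESC c57/b6 share no replicate number, so the block compares them only through samples of other sets.

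The count of members called moved by over 1.5 times as follows. A fold of at least 2 left 1 of 4 (Nanog-null clones against Nanog-null ESC), 3 of 9 (clones against WT iPSC 129/B6), 0 of 1 (G2 against G5), 5 of 8 (WT iPSC 129/B6) and 4 of 7 (interaction). The prefix term left 2 (clones against Nanog-null ESC) and 0 (G2 against G5). For WT iPSC against WT ESC it called 4, in 1 effect shared by both strains. G2 against G5 gave 0 in both limma fits, 2 with no filter or with AC samples alone, and 0 to 0 with a sample left out. The replicate block gave 3 there and 1 in c57/b6, and kept 100 of the 110 member results. Under it the Spred1 interaction was 0.25 (adjusted p = 0.258). Among the AC sets the replicate numbers did not pair the samples, since correlations of same-numbered deviations ran from -0.07 to 0.12. The JI sets were not checked in this way.

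Left-out ranges of members called were 8 to 9 for WT piPSC, 6 to 6 for Nanog-null ESC, 3 to 4 and 9 to 9 for the clones against Nanog-null ESC and WT iPSC, 7 to 8 and 0 to 1 for WT iPSC in 129/B6 and c57/b6, 8 to 9 for WT MEF, 8 to 9 and 9 to 9 for the strains in ESC and iPSC, and 5 to 8 for the interaction. For all genes they were 10582 to 11127, 8653 to 8970, 1833 to 3226, 9247 to 9437, 1127 to 1166 (G2 against G5), 3971 to 4083, 10 to 3492, 11778 to 12535, 9450 to 10748, 10202 to 10639 and 2307 to 5395. The interaction count was 5395 without WT ESC 3.

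Counts over all genes at a minimum mean FPKM of 5, which tests fewer genes, were 7180 of 11624 (WT piPSC), 6502 of 10204 (Nanog-null ESC), 2355 of 3985 (clones against Nanog-null ESC), 6334 of 9874 (clones against WT iPSC), 1289 of 2175 (G2 against G5), 3523 of 5505 (WT iPSC 129/B6) and 8269 of 12562 (WT MEF). With a fold of at least 2 they were, in the same order without WT MEF, 6850, 4592, 765, 4652, 557 and 2073, then 17 of 35 in c57/b6, 6016 of 10678 and 7140 of 11185 between the strains in ESC and iPSC, and 1645 of 3201 for the interaction. Limma on log2(FPKM + 0.1) gave 2172 (clones against Nanog-null ESC), 946 (G2 against G5) and 3627 (WT iPSC 129/B6). The prefix term gave 2294 and 1016 in the first 2 of these and 1315 for the iPSC effect shared by both strains. AC samples alone gave 3434 and the replicate block 3533 for G2 against G5. In c57/b6 the count was 216 with DESeq2, 120 and 63 in the limma fits, 349 with no filter, 3 with JI samples alone and 137 with the block. The cause of these moves was not tested. Fits of 1 prefix were not run for the strain comparisons and the interaction, nor the prefix term for the interaction, nor fits without the lone WT iPSC 129/B6 sample.

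Depth limits Spry4 in WT ESC 129/B6, and sets of at most 2 samples, with 1 for WT iPSC 129/B6, limit every comparison.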
